A study of Mus musculus with 38 samples.

Results

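The NRF2 pathway and its antioxidant enzymes were followed through 10 genes, chosen by symbol from the 21705 genes of the deposited table. They are the transcription factor NRF2 (gene symbol Nfe2l2), its inhibitor Keap1, and the enzyme genes Nqo1, Hmox1, Gclc, Gclm, Txnrd1, Srxn1, Gsr and Gpx4. All 10 had a row, and all 10 passed the filter on low values in each of the 15 comparisons made. KEAP1 holds NRF2 in the cytoplasm and hands it to a ubiquitin ligase, and oxidants or electrophiles that modify KEAP1 let NRF2 accumulate and enter the nucleus. There NRF2 pairs with small MAF proteins and binds antioxidant response elements, which lie near genes for quinone reduction, haem breakdown, glutathione synthesis and the thioredoxin system. The renal tubule, with its dense mitochondria and its load of filtered toxins, is a tissue in which these enzymes are well known.

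The libraries came from mouse models of renal cell carcinoma in which MYC, Vhl and Ink4a/Arf were altered. MYC tumours carried a doxycycline (Dox)-inducible MYC transgene, driven in the renal tubule through the Ksp promoter, VM tumours had in addition lost Vhl through a tamoxifen-inducible Cre under the same promoter, and VIM tumours had also lost Ink4a/Arf in the germline. Each tumour genotype had 3 libraries from mice kept on Dox, and normal kidney had 5 libraries from wild type mice given vehicle, 2 with B6 and 3 with KT in the title. The tumour mice and the cell lines thus share the MYC transgene, which wild type kidneys lack. The cell lines MYC-2983, VM-3055 and VIM-3039, each derived from a single tumour, had 4 libraries kept on Dox and 4 from which Dox was withdrawn, collected the day after plating. The line numbers of the VM and VIM cells come from the study's text and not from the labels, and the ages of the mice are not given in the labels. The 3 MYC tumour libraries came from 2 mice, since mouse 2983 gave 2 of them and also the MYC-2983 line, and mouse 3055 gave 1 VM tumour library. Nothing in the labels says that the 4 libraries of a cell group were separate cultures, so p-values in the cells measure only the spread between these libraries.

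The values are on the authors' scale, on which the upper quartile of the genes above 0 in a library is 1000 units. Estimated depth was 12.4 to 36.6 M reads per cell library and 8.22 to 15.5 M per tissue library, and 3 reads, the floor used for detection, were worth 1.16 to 5.65 units. The Myc row did not check the Dox labels, because it was lower in the libraries labelled Dox in all 3 lines (651 to 699 against 1764 to 1868 units in MYC-2983), and whether it counts the transgene is not given in the sources used here. Vhl was at 8.32 to 38.8 units in VM and VIM cells against 433 to 543 in MYC-2983 cells, and at 40.2 to 79.9 in VM and 219 to 312 in VIM tumours against 612 to 772 in normal kidney. Cdkn2a, the gene of the Ink4a/Arf locus, was at 24.9 to 40.8 units in VIM cells and at 3056 or more in the other lines. In tumours it did not separate all labels, with 30.1 to 95.5 units in VIM tumours and 3392 to 4347 in VM tumours, but 108 in MYC mouse 2917 and 2872 and 59.3 in the 2 libraries of mouse 2983, and 0 to 3.80 in normal kidney. The renal epithelium markers Cdh16, Pax8 and Pax2 each had a mean over 50 units in every cell group. The MYC-2983 libraries carry their own run of sample numbers in the titles, so that run and the line cannot be told apart. The tissue libraries carry a run of their own too, so run cannot be told apart from the split between cells and tissues either.

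The stretches of promoter before the Srxn1 and Nqo1 starts are shown because these were the members called for the Dox effect within a line. They come from RefSeq (GRCm38.p6), which held 12 windows of 300 bases for 7 of the 10 genes and none for Hmox1, Gclc and Gsr. The core letters of an antioxidant response element were searched on both strands as TGACNNNGC and TGAGNNNGC, and capitals mark the matches. The 250 bases before the Srxn1 start (chr2:152105274-152105523, plus strand) and before the Nqo1 start (chr8:107403206-107403455, minus strand) read 5′ to 3′ as follows.
Srxn1: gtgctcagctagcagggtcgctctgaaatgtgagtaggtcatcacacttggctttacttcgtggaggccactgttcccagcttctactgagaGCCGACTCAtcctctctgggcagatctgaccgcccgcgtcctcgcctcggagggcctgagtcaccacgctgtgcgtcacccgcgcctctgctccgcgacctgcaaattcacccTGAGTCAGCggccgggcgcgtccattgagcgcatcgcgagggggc
Nqo1: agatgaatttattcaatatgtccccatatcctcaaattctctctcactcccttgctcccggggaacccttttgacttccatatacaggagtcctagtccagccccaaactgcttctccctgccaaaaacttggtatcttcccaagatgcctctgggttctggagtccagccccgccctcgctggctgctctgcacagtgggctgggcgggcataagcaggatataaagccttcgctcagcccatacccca
Srxn1 held 2 of these cores before its start and another match past it, at position 279 of the window, whereas the Nqo1 window held none. Nfe2l2, Gclm and 1 of the Txnrd1 windows each held 1, so that 4 of the 12 windows had a match, against 27.8% of all 32851 RefSeq windows of that length. A match is a description of letters, and its absence says only that these letters are not in this window.

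Across the 10 groups the means of the regulators varied least and those of Nqo1 varied most. Keap1 (chr9:21034174-21043776 in NCBIM37, minus strand) had group means between 746 and 1025 units, and in the order of its 10 means no group was separated from the next one down. Nfe2l2 (chr2:75513570-75542698, minus strand) had group means from 1250 units in VIM-3039 cells without Dox to 2218 in VIM tumours. Nqo1, the quinone reductase gene (chr8:109912125-109927106, minus strand), spanned a range of 321-fold, from a mean of 4.16 units in VIM-3039 cells without Dox to 1337 in normal kidney. Its order ran from normal kidney through MYC-2983 cells without and with Dox to VIM tumours, each separated from the next, and VM tumours, VIM-3039 cells with Dox, MYC tumours and VM-3055 cells with Dox then overlapped their neighbours between 19.6 and 27.4 units.

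Gclc, the catalytic subunit of glutamate-cysteine ligase (chr9:77602342-77642292), spanned 10.3-fold with the libraries of mouse 2983 averaged first, from 652 units in VM-3055 cells without Dox to 6691 in VIM tumours. MYC tumours had a mean of 5494 units over the 2 mice and of 6758 over the 3 libraries. Hmox1, the haem oxygenase gene (chr8:77617490-77624495), spanned 6.16-fold and was highest in MYC-2983 cells without Dox (2795 units) and lowest in MYC tumours (454 units over the libraries, 424 over the 2 mice), with MYC tumours, normal kidney, VIM tumours and VM-3055 cells with Dox overlapping as neighbours. Srxn1, sulfiredoxin (chr2:151931252-151937112), spanned 5.08-fold and was highest in normal kidney (1550 units), which overlapped VIM tumours (1466 units). Txnrd1, thioredoxin reductase (chr10:82296696-82360469), was higher in every cell group (4218 to 7889 units) than its mean in normal kidney (3646 units) or in any tumour group (2518 to 3083 units), although single kidney and VM-3055 libraries overlapped. Gsr, glutathione reductase (chr8:34762995-34808635), was highest in normal kidney (3302 units), followed by the cells (1607 to 2315 units) and then the tumours (923 to 1119 units), with single VM-3055 cell and VIM tumour libraries overlapping. Gclm, the modifier subunit of glutamate-cysteine ligase (chr3:121948475-121972902), was highest in normal kidney (4250 units) and spanned 2.77-fold. Gpx4, the peroxidase of lipid hydroperoxides (chr10:79509911-79519184), was highest in normal kidney (874 units), and its level is uncertain because 73.7% of its transcript has a copy of at least 95% identity elsewhere in the genome.

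**Figure D1:**
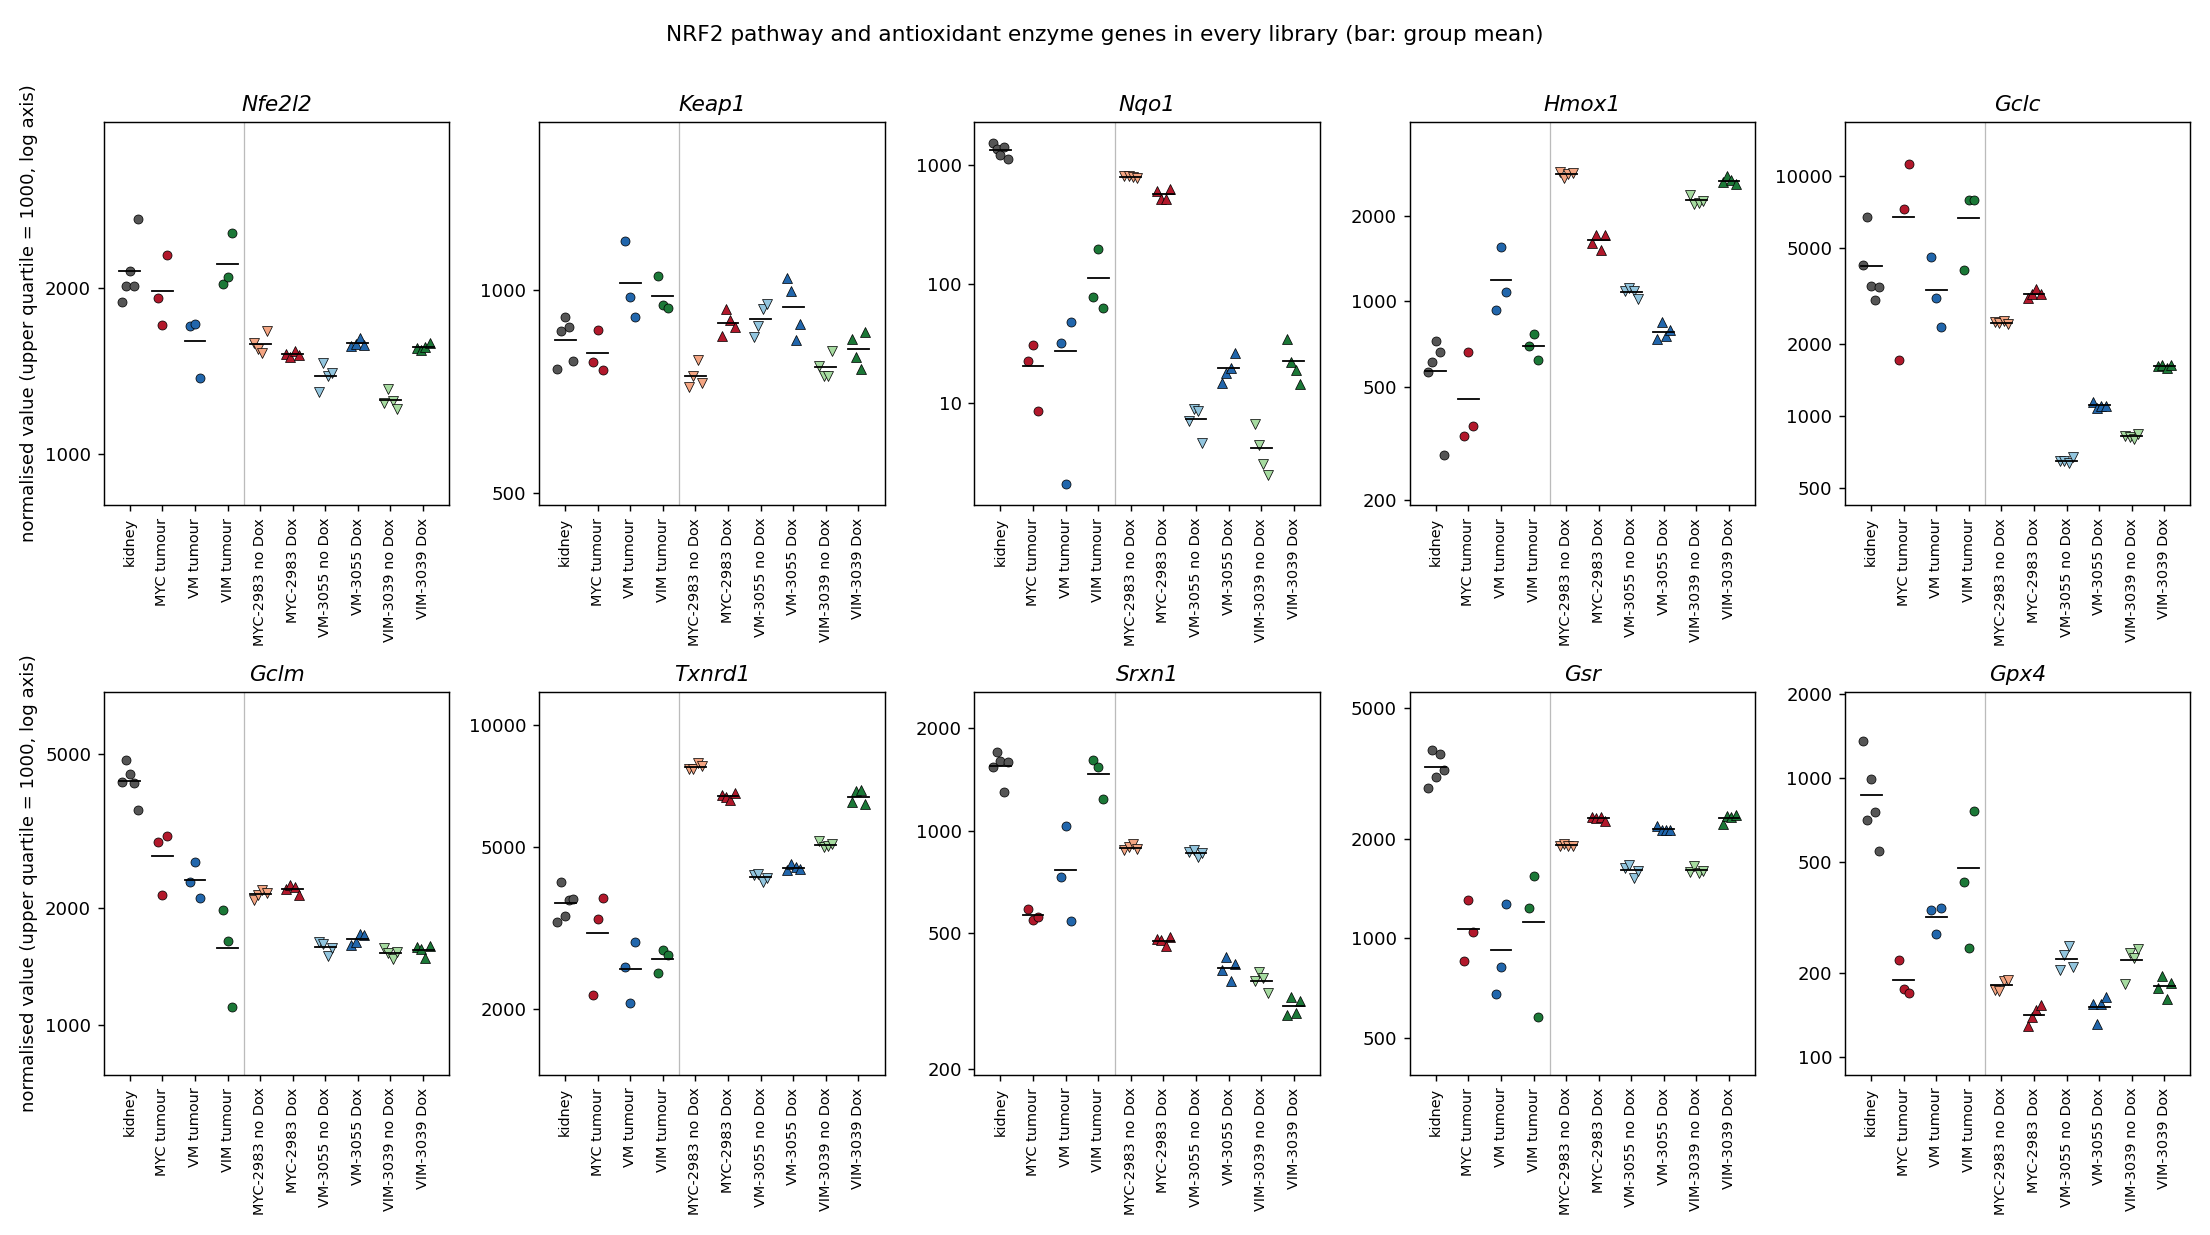
Normalised value of each of the 10 genes (log axis, upper quartile of a library = 1000) in every library of the 10 groups, with a bar at the group mean. Nqo1 runs from 2.06 to 1545 units over the libraries, with the kidneys and MYC-2983 cells far above the other groups, whereas Keap1 stays between 719 and 1184 units.

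The first comparison asked how the genes differed between cells kept on Dox and cells from which it was withdrawn. A gene was called when limma gave an adjusted p under 0.05 and a log2 change over 1. Of the 10 members 0 were called in MYC-2983 cells (19.5% of all genes tested), 2 in VM-3055 cells (24.8% of all genes) and 1 in VIM-3039 cells (24.3% of all genes). With 10 members these counts are too near the background to be read as a result about the pathway. In MYC-2983 cells 8 members had an unadjusted p under 0.05, and 0 were called by limma voom on recovered reads. The share of all genes at an unadjusted p or under voom is not given here, so these counts are not read as a result about the members. At an adjusted p under 0.05 and any size, 8, 7 and 8 members differed in the 3 lines, as did 75.5%, 73.8% and 75.3% of all genes. The called members were Nqo1, higher with Dox in both Vhl-deleted lines, and Srxn1, lower with Dox in VM-3055 cells. The median log2 change of the members was -0.15 in MYC-2983, 0.08 in VM-3055 cells and 0.28 in the VIM-3039 line, against -0.13, -0.26 and -0.15 over all genes tested.

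Nqo1 was at 518, 521, 610 and 633 units in MYC-2983 cells with Dox and at 788, 792, 807 and 817 without. All MYC-2983 libraries with Dox lay below all those without. The log2 change of -0.50 ± 0.054 (SE, limma adjusted p = 1.42e-07) did not reach the size for a call. In VM-3055 cells Nqo1 was at 14.8, 17.9, 19.5 and 26.3 units with Dox and at 4.56, 7.05, 8.53 and 8.92 without. Here the libraries with Dox lay above those without, and Nqo1 rose by 1.33 ± 0.26 on the log2 scale (adjusted p = 0.000168). These levels stand on 20 to 30 reads with Dox and 6 to 23 without, and with a pseudocount of 10 in place of 1 the change was 0.77 and no longer called.

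In VIM-3039 cells Nqo1 was at 14.5, 19.03, 22.2 and 34.7 units with Dox and at 2.49, 3.06, 4.46 and 6.64 without. Each library with Dox was above each library without, and Nqo1 rose by 2.19 ± 0.31 (adjusted p = 1.79e-06). Without Dox only 3 to 7 reads per library lay behind these values, and 3 reads were worth 2.49 to 3.34 units there. Nqo1 thus moved with Dox from a low level in the Vhl-deleted lines and stayed far above them in MYC-2983 cells. The difference between the Dox effects was called for VM-3055 against MYC-2983 (1.82 ± 0.23, adjusted p = 1.65e-06, where 8.78% of all genes were called and 1 of 10 members was) and for VIM-3039 against MYC-2983 (2.69 ± 0.30, adjusted p = 1.44e-07, where 9.06% of all genes and 2 of 10 members were called). Between VIM-3039 and VM-3055 it was 0.87 (95% interval -0.01 to 1.74, adjusted p = 0.122), with 0 members called beside 6.05% of all genes. There 6 members had an unadjusted p under 0.05, and limma voom called 0. Hmox1, Srxn1, Gclc and Txnrd1 had an adjusted p under 0.05 at a smaller size. The share of all genes at these looser thresholds is not given here, so these counts are not read as a result about the members.

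Srxn1 reduces oxidised peroxiredoxins. In VM-3055 cells it was at 361, 391, 407 and 426 units with Dox and at 840, 861, 869 and 880 without. The groups were far apart and Srxn1 fell by 1.12 ± 0.058 (adjusted p = 5.58e-12), although under rescaling by the trimmed mean of ratios (TMM) the change was -0.89 and under quantile normalisation -0.99, and neither was called. In MYC-2983 cells it was at 459, 479, 480 and 486 units with Dox against 879, 884, 898 and 913 without, a change of -0.91 ± 0.033 (adjusted p = 2.21e-14) that stayed just under the size for a call. In VIM-3039 cells it was at 287, 291, 316 and 326 units with Dox against 333, 362, 369 and 384 without, a change of -0.25 ± 0.064 (adjusted p = 0.00163). Even without Dox, Srxn1 in VIM-3039 cells lay below every MYC-2983 library with Dox and overlapped the VM-3055 libraries with Dox.

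Hmox1 converts haem to biliverdin, iron and carbon monoxide. It was at 1517, 1609, 1713 and 1715 units in MYC-2983 cells with Dox against 2718, 2797, 2818 and 2848 without, a change of -0.77 ± 0.035 (adjusted p = 4.33e-13). In VM-3055 cells it was at 737, 755, 792 and 843 units with Dox against 1016, 1082, 1090 and 1109 without, a change of -0.46 ± 0.052 (adjusted p = 3.23e-07). In VIM-3039 cells it was at 2589, 2618, 2666 and 2762 units with Dox against 2203, 2214, 2260 and 2373 without, a change of 0.23 ± 0.034 (adjusted p = 1.9e-06). None of these was called by size, and the direction in VIM-3039 cells was opposite to that in the other lines. The Dox effect differed between VIM-3039 and MYC-2983 by 1.005 ± 0.050 (adjusted p = 7.8e-13), which is called by the narrowest margin, since without any 1 of 6 libraries (MYC-2983 replicates 1 and 3 with Dox and 1 without, VIM-3039 replicate 2 with Dox and 2 and 3 without), and under TMM (0.96) and quantile normalisation (0.98), it was under the size for a call, at 0.96 in the lowest case.

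Glutamate-cysteine ligase makes the first, rate-limiting bond of glutathione. Gclc was at 3108, 3214, 3240 and 3393 units in MYC-2983 cells with Dox against 2423, 2441, 2462 and 2487 without. It was at 1084, 1098, 1105 and 1139 against 636, 646, 649 and 674 units in VM-3055 cells. In all 3 lines the libraries with Dox were above those without, VIM-3039 included (1584 to 1627 against 803 to 845 units). The log2 changes were 0.40 ± 0.028, 0.76 ± 0.046 and 0.97 ± 0.035 in the MYC, VM and VIM line (adjusted p = 1.96e-10, 4.71e-11 and 1.78e-16), all under the size for a call, with VIM-3039 called under TMM (1.13). Gclm showed changes of 0.04, 0.07 and 0.02, with 95% intervals that reached from -0.05 to 0.16 over the 3 lines, and the groups overlapped in each.

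Gsr, which returns oxidised glutathione to its reduced form with NADPH, was at 2274 to 2339 units in MYC-2983 cells with Dox against 1899 to 1935 without. It was at 2128 to 2188 against 1522 to 1667 units in VM-3055 cells and at 2218 to 2359 against 1583 to 1657 in VIM-3039 cells. The groups were apart in every line, with changes of 0.28, 0.42 and 0.52 (adjusted p = 5.43e-09, 6.8e-08 and 2.86e-12). Txnrd1, which reduces thioredoxin, had log2 changes of -0.24 in MYC-2983 cells, 0.08 in VM-3055 cells and 0.39 in the VIM-3039 line (adjusted p = 4.79e-08, 0.0764 and 3.01e-10). Its Dox effect in VIM-3039 cells was above that in MYC-2983 cells by 0.63 ± 0.039 (adjusted p = 1.5e-11). Gpx4 had changes of -0.35, -0.57 and -0.30 (adjusted p = 0.000281, 3.33e-05 and 0.00577), with libraries that overlapped in VIM-3039 cells alone.

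The regulators had log2 changes of at most 0.32. Nfe2l2 was at 1497 to 1538 units in MYC-2983 cells with Dox against 1526 to 1673 without (change -0.06, adjusted p = 0.0654), a difference that had the opposite sign under TMM (0.07). It was at 1573 to 1621 against 1296 to 1459 units in VM-3055 cells (change 0.20, adjusted p = 0.000641) and at 1544 to 1592 against 1207 to 1310 in VIM-3039 cells (change 0.32, adjusted p = 2.37e-08). Keap1 had changes of 0.26, 0.05 and 0.09 in the MYC, VM and VIM line (adjusted p = 4.39e-06, 0.462 and 0.0893). Summed levels of marker genes of other cell types differed with Dox as well, but the fibroblast and leukocyte sums stand on few genes. Of the 6 fibroblast markers, 2 had a mean over 50 units in each MYC-2983 group and 1 in each VM-3055 group. In VIM-3039 cells 2 did without Dox and 0 with it. Of the 8 macrophage and leukocyte markers 2 did in each cell group, but 4 in VM-3055 cells without Dox. Lum was at 0 in all VM-3055 libraries, Dcn and Lum in VIM-3039 cells with Dox, and C1qa and C1qb in both Vhl-deleted lines. The 6 fibroblast markers summed to 156 to 212 units with Dox against 835 to 985 without in MYC-2983 cells, 85.7 to 109.8 against 628 to 708.5 in VM-3055 cells and 21.8 to 30.2 against 129.6 to 175 in the VIM-3039 line. The 8 macrophage and leukocyte markers summed to 558 to 619 against 1307 to 1388 units, 466 to 529 against 1136 to 1205 and 516.5 to 549 against 599.8 to 682 in the same order, with Emr1 at 0 in every cell library and Thy1, of the fibroblast list, at 0 in all libraries of the Vhl-deleted lines. The 6 proximal tubule markers summed to 4545 to 5523 against 6651 to 7889 units in MYC-2983 cells and overlapped between the groups in the other lines, and Slc34a1 was at 0 in all groups but VIM-3039 without Dox. Endothelial markers summed to at most 12.5 units, erythroid markers to at most 4.43 and markers of the loop, distal tubule and collecting duct to at most 40.5 in any cell library. Cdh16, a cadherin of renal tubule epithelium, had a mean of 3483 units with Dox against 9009 without in VM-3055 cells. The part of these markers in the members' differences was not tested.

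TMM moved the median change of all genes from -0.13, -0.26 and -0.15 to -0.01, -0.04 and -0.01. It rescales each library by a single factor, so the members' changes lie higher by about that shift too. Their place relative to all genes stays nearly the same.

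**Figure D2:**
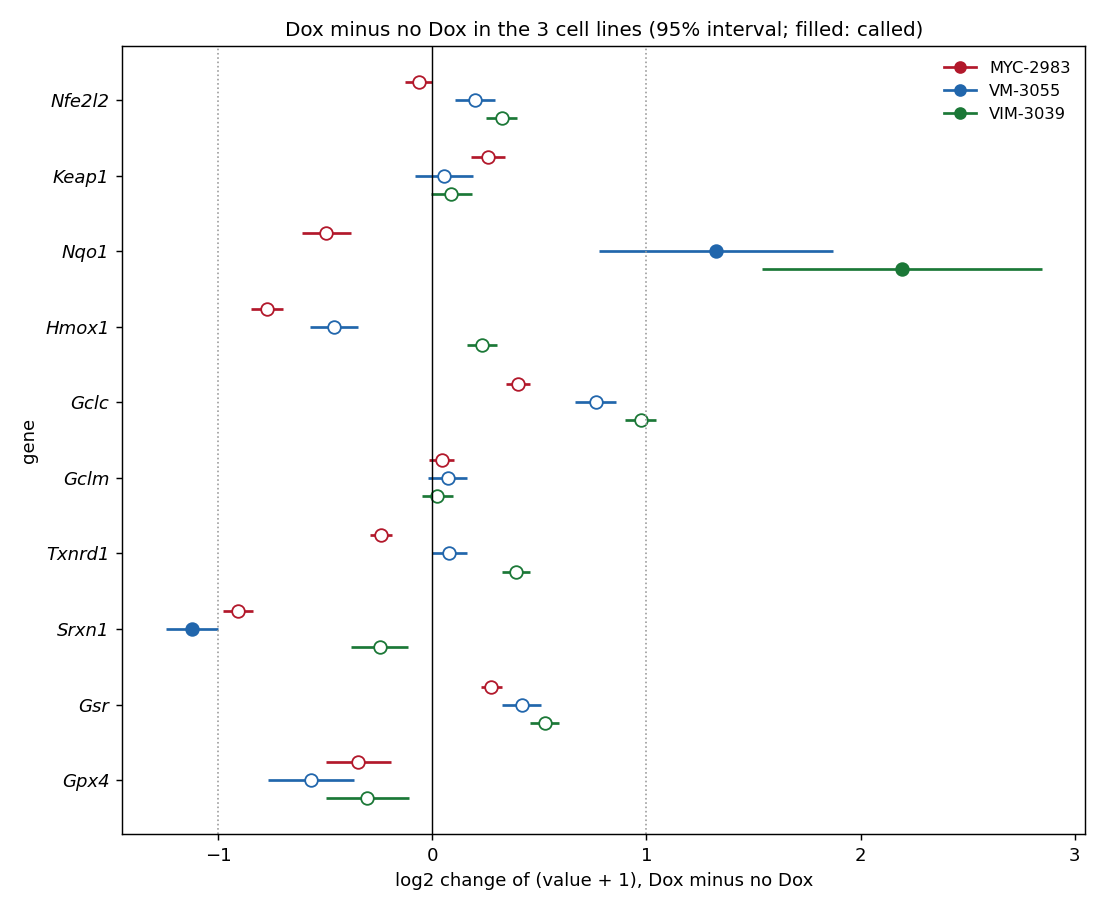
Log2 change of (value + 1) with Dox minus without, for each of the 10 genes in the 3 lines, with the 95% interval as a line and a filled point for a called gene. Nqo1 stands at -0.50 in MYC-2983 cells, at 1.33 in the VM line and at 2.19 in the VIM line, and Srxn1 in VM-3055 cells (-1.12) is the other called value.

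Lines were then compared with Dox present, which asks how the Vhl-deleted lines differed from MYC-2983 and from each other. These comparisons share libraries, so each is given by its own values. Of the 10 members 3 were called between VM-3055 and MYC-2983 cells (24.6% of all genes tested were called), namely Nqo1, Gclc and Hmox1, all lower in VM-3055. Nqo1 and Gclc were also the 2 members called between VIM-3039 and MYC-2983 cells (23.9% of all genes), both lower in VIM-3039. The Nqo1 difference from MYC-2983 was -4.82 (SE 0.15, adjusted p = 2.36e-12) in VM-3055 cells and -4.66 (SE 0.19, adjusted p = 2.16e-11) in the VIM-3039 line, or 28.2-fold and 25.3-fold lower on the scale of value + 1. VIM-3039 and VM-3055 did not differ detectably in Nqo1 (0.16, 95% interval -0.39 to 0.70), and the sign turned to -0.06 without the highest VIM-3039 library (replicate 1) and to -0.71 in cells without Dox (adjusted p = 0.0612).

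The Gclc difference from MYC-2983 was -1.55 in VM-3055 cells (SE 0.032, adjusted p = 5.78e-14) and -1.0035 in the VIM-3039 line (SE 0.029, adjusted p = 6.03e-13). The latter lies at the size for a call, and the call was lost under TMM (-0.85), quantile normalisation (-0.90) and a pseudocount of 10, and without MYC-2983 replicate 3 (-0.98) or VIM-3039 replicate 3 (-0.99). Hmox1 was called lower in VM-3055 than in MYC-2983 cells at -1.07 (SE 0.049, adjusted p = 1.53e-10), with -0.92 under TMM and -0.96 under quantile normalisation, which were not called. It was the 1 member called between VIM-3039 and VM-3055 (19.1% of all genes called), higher by 1.77 ± 0.042 in VIM-3039 cells (adjusted p = 2.68e-15). Without Dox the same pair of lines differed in Srxn1 as well, by -1.25 (adjusted p = 4.83e-12), and Srxn1 was also called between VIM-3039 and MYC-2983 there (-1.30, adjusted p = 1.71e-12, against -0.64 with Dox, which was not called). Hmox1 in VIM-3039 against MYC-2983 cells was 0.70 ± 0.039 with Dox (adjusted p = 6.16e-10) but -0.31 without (adjusted p = 1.71e-07). Gsr and Txnrd1 differed by -0.00 between VIM-3039 and MYC-2983 cells with Dox, with 95% intervals from -0.06 to 0.06 and from -0.07 to 0.06, and their signs turned under TMM to 0.16 and 0.15.

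Tumours were compared with normal kidney, with the libraries of 1 mouse averaged first. Nqo1 and Gsr were called lower in all 3 genotypes. Members called were 4 of 10 in MYC tumours (37.1% of all genes tested), 5 of 10 in VM tumours (39.8%) and 3 of 10 in VIM tumours (39.6%), shares close to the background of each comparison. The 3 comparisons share the kidney libraries. Called lower were Nqo1, Gpx4, Gsr and Srxn1 in MYC and VM tumours and Nqo1, Gsr and Gclm in VIM tumours, and Hmox1 was called higher in VM tumours. The median log2 change of the members was -0.50, -0.69 and -0.27 in MYC, VM and VIM tumours, against 0.12, -0.05 and 0.01 over all genes tested.

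Summed levels of marker genes of other cell types also differed between kidney and tumours, except for the fibroblast and erythroid markers, which overlapped. The summed level of the 6 proximal tubule markers was 197775 to 232446 units in normal kidney and 1773 to 10506 in the tumours, with all 6 detected in every tissue group. That of 8 macrophage and leukocyte markers was 2178 to 3218 units in normal kidney and 4470 to 24039 in the tumours, and that of 5 endothelial markers was 3253 to 5579 against 192 to 1949 units. Markers of the loop, distal tubule and collecting duct summed to 72772 to 161898 units in normal kidney and 2.47 to 6437 in the tumours, with Aqp2 at 0 in all VM tumours. The 6 fibroblast markers summed to 910 to 3208 against 491 to 8052 units, and the 2 erythroid markers in the table to 734 to 2644 against 81.0 to 1644 units. The part of these cells in the members' differences was not tested, and in bulk tissue fewer cells of a type and less RNA per cell cannot be told apart.

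Nqo1 was at 1131, 1216, 1378, 1417 and 1545 units in normal kidney. In MYC tumours it was at 22.4 units in mouse 2917 and at 8.47 and 30.9 in the 2 libraries of mouse 2983. In VM tumours it was at 2.06, 31.96 and 48.1 units and in VIM tumours at 62.4, 77.2 and 199. No tumour library came near a kidney, and the VIM tumours lay above the other tumours. The log2 change in Nqo1 was -5.92 in MYC tumours (SE 0.17, adjusted p = 4.86e-07), -6.29 in VM tumours (SE 0.74, adjusted p = 7.11e-05) and -3.74 in VIM tumours (SE 0.33, adjusted p = 1.88e-05). The lowest value, 2.06 units in the VM tumour of mouse 3055, stands on 2 reads and lies under the floor of 3 reads, and without it the change in VM tumours was -5.05. The VM-3055 cells with Dox held 14.8 to 26.3 units, and the MYC-2983 cells with Dox held 518 to 633 units, far above the tumour libraries of mouse 2983.

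Gsr was at 2849, 3082, 3233, 3619 and 3727 units in normal kidney. It was at 854 units in MYC mouse 2917 and at 1047 and 1310 in mouse 2983, at 680, 819 and 1269 in VM tumours and at 578, 1237 and 1543 in VIM tumours. Every tumour was below every kidney, and Gsr fell by 1.71, 1.88 and 1.67 on the log2 scale in MYC, VM and VIM tumours (SE 0.17, 0.20 and 0.28, adjusted p = 0.000122, 3.49e-05 and 0.00081). The kidneys themselves differed by title, with Gsr at 2849 and 3082 units in the B6 kidneys and at 3233 to 3727 in the KT kidneys.

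Srxn1 was at 1296, 1543, 1591, 1608 and 1709 units in normal kidney. It was at 589 units in MYC mouse 2917 and at 546 and 556 in mouse 2983, at 543, 734 and 1030 in VM tumours, and at 1243, 1536 and 1620 in VIM tumours. MYC and VM tumours were below every kidney, whereas VIM tumours overlapped them. Srxn1 fell by 1.44 in MYC tumours (SE 0.14, adjusted p = 0.000104) and by 1.05 in VM tumours (SE 0.20, adjusted p = 0.0013), the latter -0.83 and not called without the VM tumour of mouse 2459, and the change was -0.08 in VIM tumours (95% interval -0.42 to 0.25).

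Gpx4 was at 546, 707, 757, 997 and 1363 units in normal kidney. It was at 223 units in MYC mouse 2917 and at 169 and 176 in mouse 2983, at 275, 336 and 342 in VM tumours and at 247, 424 and 762 in VIM tumours. Kidneys and VIM tumours overlapped, and the B6 kidneys (997 and 1363 units) lay above the KT kidneys (546 to 757 units). Gpx4 fell by 2.08 in MYC tumours (SE 0.33, adjusted p = 0.00109) and by 1.39 in VM tumours (SE 0.27, adjusted p = 0.00159). The change in VIM tumours was -0.95 ± 0.38 (adjusted p = 0.0601), and it was called without the VIM tumour of mouse 3130 (-1.36, adjusted p = 0.0117) or without the lowest kidney (-1.10, adjusted p = 0.039), whereas without the VIM tumour of mouse 3233 it was -0.55.

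Of the subunits of glutamate-cysteine ligase, only Gclm had a called change in any tumour genotype. Gclm was at 3580, 4208, 4216, 4426 and 4818 units in normal kidney, and every tumour was lower, at 2157 to 3068 units in MYC, 2118 to 2627 in VM and 1114 to 1981 in VIM tumours. Gclm fell by 1.46 in VIM tumours (SE 0.20, adjusted p = 0.00021), and its changes of -0.61 and -0.85 in MYC and VM tumours (adjusted p = 0.0102 and 0.000516) were not called by size. Gclc was at 3059, 3462, 3478, 4284 and 6764 units in normal kidney. It was at 1705 units in MYC mouse 2917 but at 7329 and 11239 in mouse 2983, at 2355, 3105 and 4586 in VM tumours and at 4081, 7991 and 8001 in VIM tumours. The kidneys overlapped each tumour group, and no change in Gclc was called (-0.02, -0.32 and 0.66, adjusted p = 0.981, 0.363 and 0.0965). Without mouse 2917 the change in MYC tumours was 1.20 (adjusted p = 0.0289), with the lone mouse 2983 assumed to vary like the kidneys.

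Hmox1 was at 287, 564, 613, 661 and 722 units in normal kidney and at 931, 1076 and 1546 in VM tumours. All VM tumours were above all kidneys, and Hmox1 rose by 1.09 ± 0.30 (adjusted p = 0.0111). The call was lost without the VM tumour of mouse 3055 (0.88, adjusted p = 0.0547), without the lowest kidney (0.86, adjusted p = 0.00465) and against the B6 kidneys alone (0.86, adjusted p = 0.0475). Hmox1 is made by macrophages as well as tubule cells. The 8 macrophage and leukocyte markers summed to 4470 to 13196 units in VM tumours against 2178 to 3218 in normal kidney. Hmox1 had changes of -0.39 in MYC and 0.35 in VIM tumours (adjusted p = 0.39 and 0.33), in which those markers summed to 6545 to 24039 and 10891 to 18851 units. The part of those cells in the Hmox1 values was not tested. Txnrd1 (-0.39, -0.54 and -0.45, limma adjusted p = 0.133, 0.00944 and 0.0187) was not called in any genotype. Neither was Keap1 (-0.07, 0.28 and 0.22, adjusted p = 0.67, 0.105 and 0.193) nor Nfe2l2 (-0.12, -0.42 and 0.05, adjusted p = 0.549, 0.0349 and 0.816). All VM and VIM tumours lay below all kidneys in Txnrd1 and above them in Keap1, and all VM tumours lay below them in Nfe2l2. Txnrd1 was at 3284 to 3392 units in the B6 kidneys and at 3712 to 4112 in the KT kidneys.

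**Figure D3:**
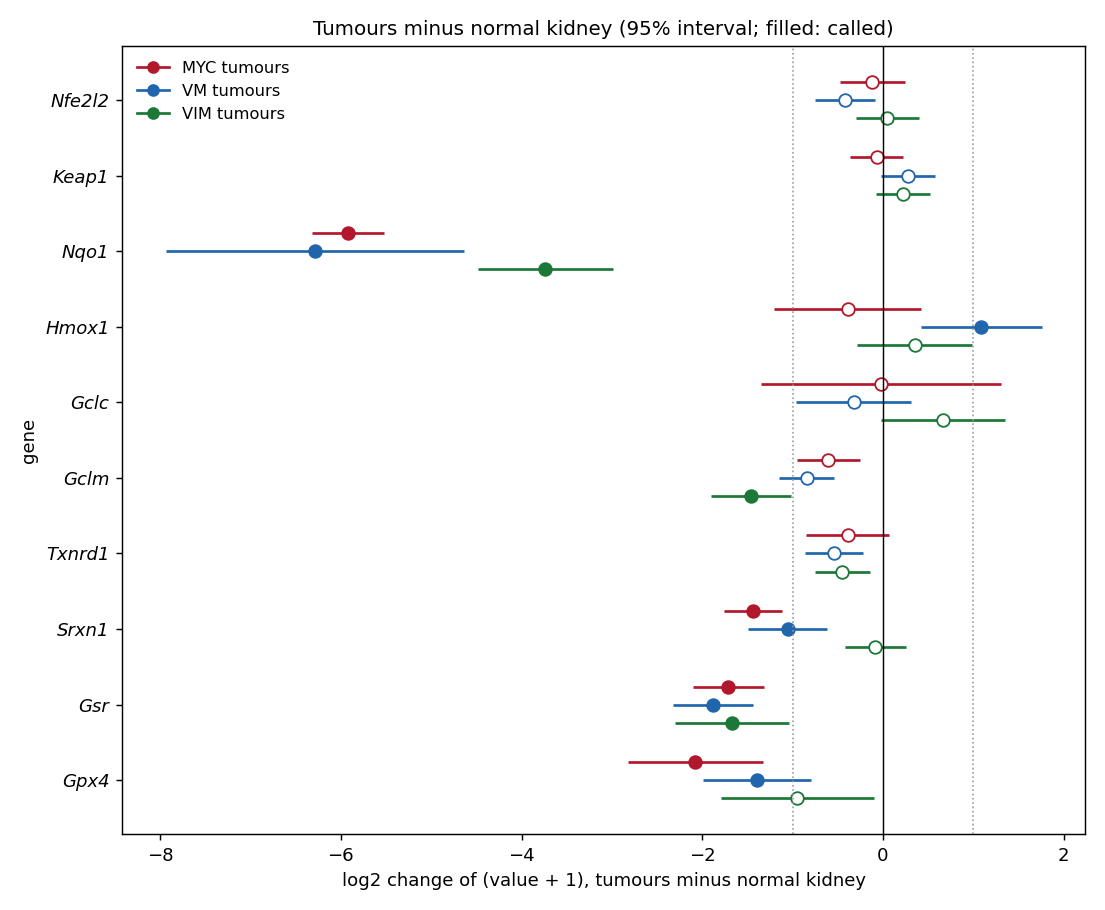
Log2 change of (value + 1) in MYC, VM and VIM tumours minus normal kidney for each of the 10 genes, with the 95% interval as a line and a filled point for a called gene. Nqo1 lies between -6.29 and -3.74 and Gsr between -1.88 and -1.67 in the 3 genotypes, Srxn1 lies at -0.08 in VIM tumours, and Hmox1 in VM tumours (1.09) is the called rise.

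Between tumour genotypes limma called 0 members, beside 0%, 0.00616% and 0.249% of all genes tested for VM against MYC, VIM against MYC and VIM against VM tumours. At an unadjusted p under 0.05 there were 1, 3 and 5 members, and limma voom on recovered reads called 0. The share of all genes at an unadjusted p under 0.05 is not given here, so these counts are not read as an excess. Nqo1 was higher in VIM than in MYC tumours by 2.18 (95% interval 0.47 to 3.89, adjusted p = 0.286) and than in VM tumours by 2.55 (95% interval 0.11 to 4.99, adjusted p = 0.415), and its groups did not overlap in either. The latter difference was 1.31 without the VM tumour of mouse 3055. Srxn1 was higher in VIM than in MYC tumours by 1.35 (95% interval 0.74 to 1.96, adjusted p = 0.2), and with all 4 tissue groups in one fit this difference was called (adjusted p = 0.0142). Hmox1 was higher in VM than in MYC tumours by 1.48 (95% interval 0.72 to 2.24, adjusted p = 0.186), and it too was called in that fit (adjusted p = 0.0493). That fit called 713 of all 17116 genes tested for VIM against MYC tumours and 395 for VM against MYC tumours. The shares given above for all genes do not apply to it.

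A wider set of 74 pathway genes was read beside the members, and 73 of them had a row above 0 in enough tissue libraries to be tested. With Dox 2 rose and 11 fell of 72 tested in MYC-2983 cells, 3 rose and 12 fell of 67 in VM-3055 cells, and 4 rose and 15 fell of 68 in VIM-3039 cells, where 19.5%, 24.8% and 24.3% of all genes were called. The median log2 changes of the set were -0.24, -0.25 and -0.18, against -0.13, -0.26 and -0.15 over all genes tested. Of the conjugation and efflux genes tested, 5 of 21, 5 of 17 and 4 of 18 fell in the MYC, VM and VIM line and 0 rose. These called shares are near those of all genes, and the share of all genes called lower is not given here. Mgst2, a microsomal glutathione transferase, was among the 3 largest in each line, falling from 13.6 to 19.1 units without Dox to 1.08 to 4.47 with Dox in MYC-2983 cells, and to at or under the floor in VM-3055 cells (at least 5.04-fold lower). Its values with Dox stood on 2 to 8 reads in MYC-2983 cells. In VIM-3039 cells Mgst2 stood on 0 to 4 reads with Dox and 4 to 19 without, near the floor. Gpx3, the secreted glutathione peroxidase, fell from 1133 to 1267 units to 300 to 320 in MYC-2983 cells (-1.93), and Sod3, the extracellular superoxide dismutase, fell by 1.91 there and by 1.67 in VM-3055 cells. Sod3 stood on only 5 to 9 reads in VM-3055 cells with Dox, near the floor. Gpx8, a peroxidase of the endoplasmic reticulum, fell from 820 to 952 units to 234 to 281 in VM-3055 cells (-1.78), and Aox1, aldehyde oxidase, fell by 1.80 in VIM-3039 cells. Maff, a small MAF partner of NRF2, fell from 1206 to 1377 units without Dox to 330 to 378 with Dox in VIM-3039 cells (-1.87) and, named there after its values were seen, was also called lower in MYC-2983 (-1.60) and VM-3055 cells (-1.57). Also named after their values were seen, Ggt1 (1.34, 1.52 and 1.71) and Sod2, the mitochondrial superoxide dismutase (1.17, 1.40 and 1.28), rose in each of the 3 lines.

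The Dox effect on Gsta4, which conjugates lipid aldehydes to glutathione, differed between VM-3055 and MYC-2983 cells by -1.77, with 47.7 to 64.0 units with Dox and 95.4 to 116 without in VM-3055 cells and 150 to 176 against 76.1 to 96.8 in MYC-2983 cells. Gstm2, a glutathione transferase, differed in its Dox effect between VIM-3039 and MYC-2983 cells by 1.30, being lower with Dox in MYC-2983 cells (21.2 to 31.97 against 82.9 to 102 units). In VIM-3039 cells Gstm2 was at 3.23 to 5.55 units with Dox and 5.69 to 7.14 without, which stand on 4 to 8 and 6 to 7 reads, near the floor. Gpx7 and Gstm4 were also called in these comparisons, but they were at or under the floor in the Vhl-deleted lines in question with and without Dox, as was Gsta1 in VIM-3039 cells without Dox, so their differences carry no size.

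Between lines with Dox, 12 of the 20 conjugation and efflux genes tested were called lower and 0 higher in VM-3055 than in MYC-2983 cells, where 24.6% of all genes were called. In VIM-3039 cells 12 of 20 were called lower and 1 higher, where 23.9% of all genes were called. Of the genes tested in these comparisons, 6 and 3 were at or under the floor in every library of 1 line. A gene absent from 1 line passed the filter through the other line alone and could be called in 1 direction only. These counts are therefore not read as a result about the list. Their median log2 differences were -1.503 and -1.39 (-1.38 and -1.11 with genes at the floor set to their bound), against -0.19 and -0.18 over all genes tested. Ephx1, microsomal epoxide hydrolase, was at 5.11 to 6.79 units in VM-3055 cells, at 450 to 462 in MYC-2983 cells and at 1034 to 1111 in VIM-3039 cells, so that VIM-3039 was higher than VM-3055 by 7.22 and the VM-3055 difference from MYC-2983 was -6.00 on the log2 scale. Cbr1, a carbonyl reductase, was at 245 to 292 units in VIM-3039 and 11.04 to 22.1 in VM-3055 cells (4.03). Its relative Cbr3 was at 226 to 275 units in MYC-2983 cells, at 0 in all VM-3055 libraries (at least 97.9-fold lower) and at 4.85 to 11.1 in VIM-3039 cells (-4.83 against MYC-2983 and at least 3.18-fold higher than VM-3055). Mgst1 was at 47.3 to 70.4 units in MYC-2983 cells and at or under the floor in VM-3055 (at least 22.7-fold lower) and in VIM-3039 (at least 24.7-fold lower), and Gstm4 was at 43.5 to 57.02 units in MYC-2983 and at 0 in VIM-3039 cells (at least 20.4-fold lower).

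In tumours against kidney 11 of the 73 rose and 27 fell in MYC tumours, 9 rose and 27 fell in VM tumours, and 14 rose and 24 fell in VIM tumours, where 37.1%, 39.8% and 39.6% of all genes were called. The median log2 changes of the set were -0.49, -0.44 and -0.33, against 0.12, -0.05 and 0.01 over all genes tested. All 4 superoxide dismutase and catalase genes fell in MYC tumours, and 3 of 4 fell in each of VM and VIM tumours. Gsta2, an alpha class glutathione transferase of the tubule, fell from 1303 to 7376 units in kidney to 2.82 to 21.5 in MYC tumours (-7.38) and 10.7 to 57.9 in VM tumours (-6.13), and Gsta3 fell by 5.05 in MYC tumours. Gsta1 was at 88.2 to 554 units in kidney, at or under the floor in MYC tumours and at 1.03 to 22.2 units in VM tumours (-4.67), and Abcc2, an efflux pump of the apical tubule membrane, fell from 5827 to 8963 units to 294 to 492 in VIM tumours (-4.16). Alpha class transferases are close copies of one another, so their reads may have been split between them. Mgst2 was at 0 in all kidneys, at 5.16, 46.9 and 377 units in VM tumours and at 5.01, 26.4 and 40.4 in VIM tumours, so that a single tumour sets much of the VM level and the lowest values lie near the floor. Maff rose from 25.9 to 40.2 units in kidney to 281 to 1028 in VIM tumours (3.89), and Maff, named there after its values were seen, was also called higher in MYC (3.10) and VM tumours (4.15).

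**Figure D4:**
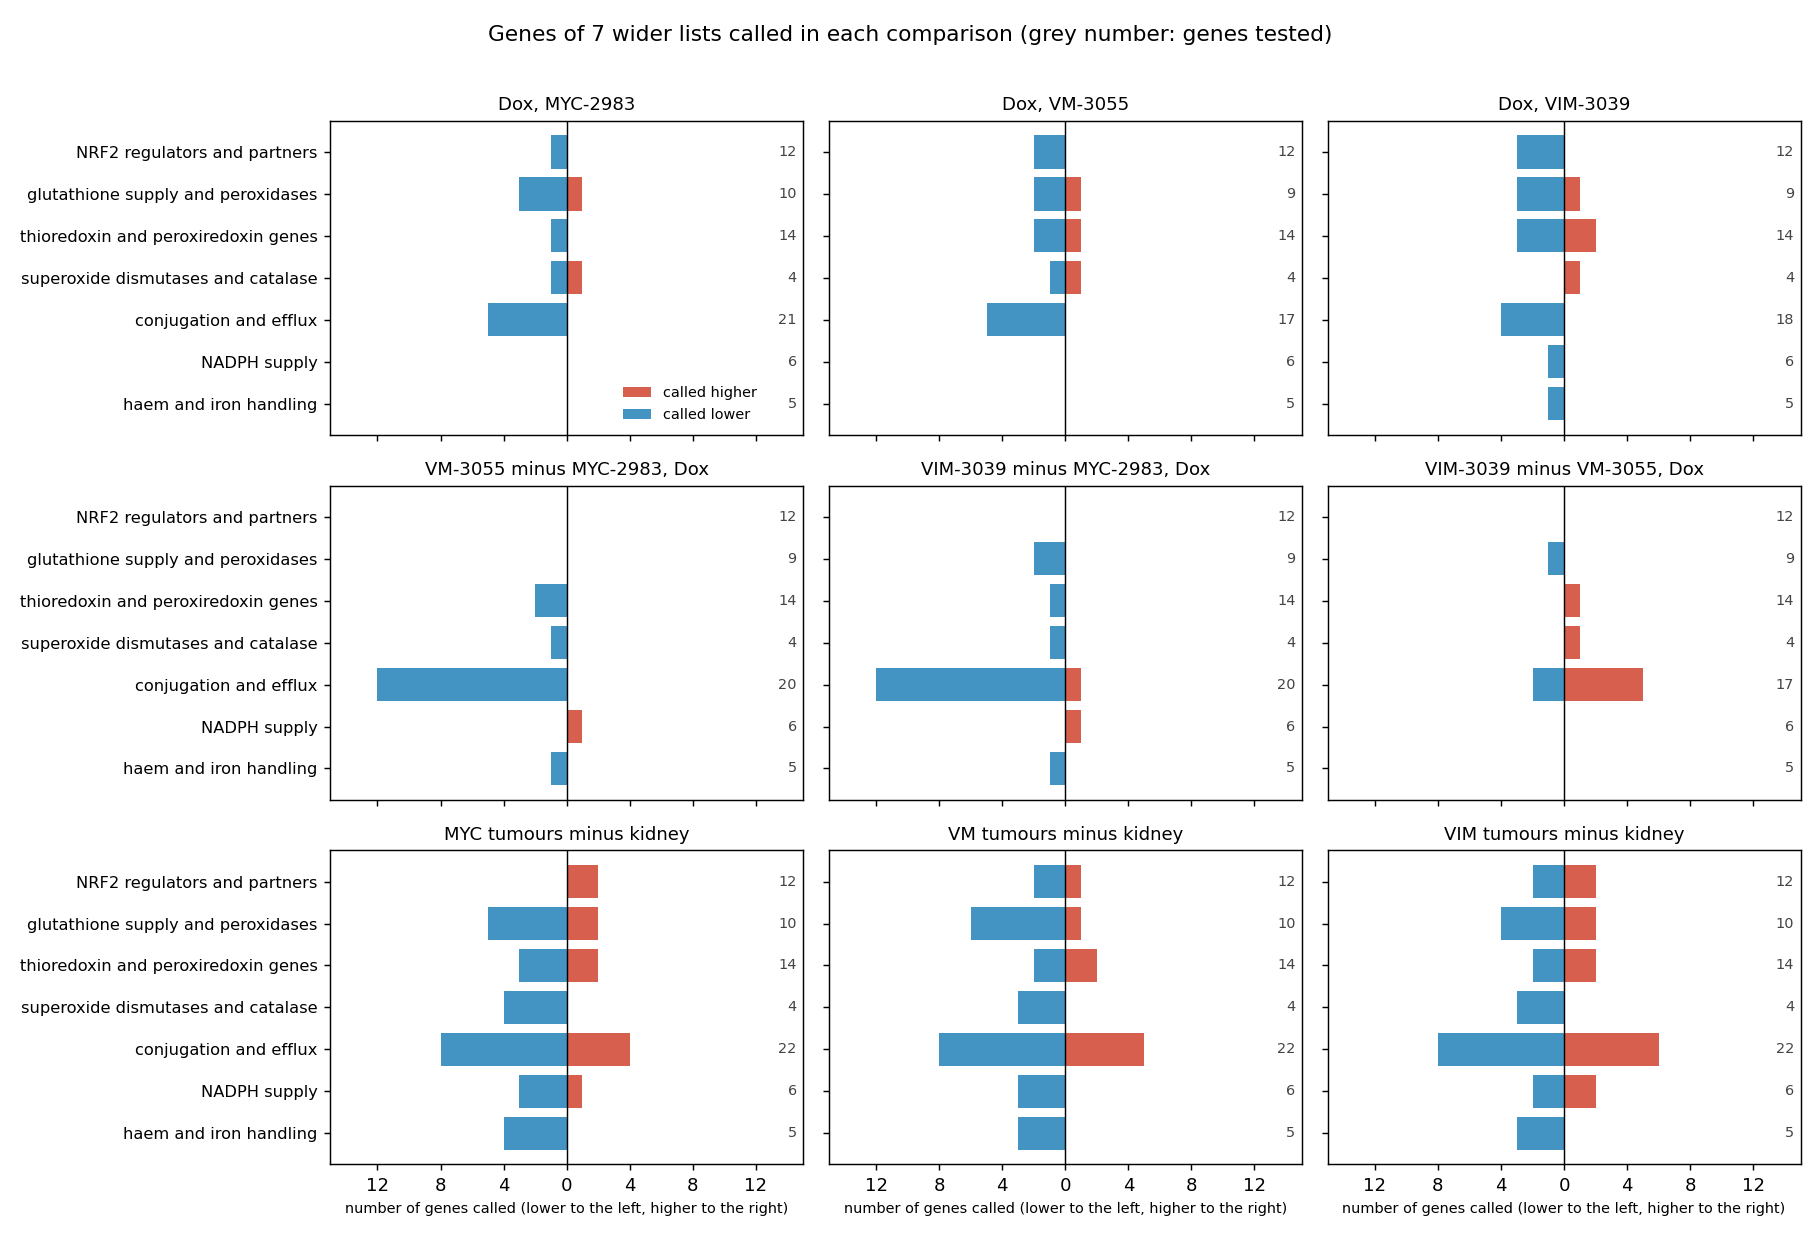
Number of genes called higher (right of 0) and lower (left of 0) in each of 7 lists of wider pathway genes, for the Dox effect in 3 lines, the pairs of lines with Dox and the tumours against kidney, with the number of genes tested in grey. Conjugation and efflux genes give 12 called lower in VM-3055 and in VIM-3039 against MYC-2983 cells, and the superoxide dismutase and catalase genes give 4, 3 and 3 called lower in the tumours. In those comparisons of lines, 6 and 3 of the conjugation and efflux genes were at or under the floor throughout a line.

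Over the 10 group means the members did not move as a block. The 45 pairs of members had Pearson correlations of log2 (mean + 1) between -0.71 and 0.85 with a median of 0.22, and 26 of them were positive. The highest was between Nfe2l2 and Gclc (0.85) and the lowest between Nfe2l2 and Hmox1 (-0.71). These points share the split between cells and tissues and the scaling of the libraries, so the values are a description. Among 13353 genes the pattern most like that of a member was Ppp1r13b for Nqo1 (0.935), Synm for Hmox1 (0.961), Nfia for Gclc (0.973), Igf2 for Gclm (0.972), Mest for Txnrd1 (0.973), Zfp672 for Srxn1 (0.964), Mmgt1 for Gsr (0.953), Atp6v1e1 for Gpx4 (0.979), Mettl7a2 for Nfe2l2 (0.933) and Cops6 for Keap1 (0.935). The next most alike were Daam2, Sema3a, Pnpla7, Ctdsp1, Nxn, 1190007F08Rik, Slc6a9, Fuca1, Pim3 and Cwc15 in the same order (0.911 to 0.974).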

How the data were processed

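RNA from 38 mouse libraries (24 of cell lines, 9 of tumours and 5 of normal kidney) was sequenced from stranded mRNA libraries. Per the submitters' processing notes and the study's methods, reads were aligned to mm9 with MapSplice, sorted with SAMtools, profiled with Picard 1.64 and quantified with RSEM. Whether counting used strand is not given in the sources used here. The deposited values are a signal: the authors scaled each library's estimated counts so that the upper quartile is 1000, and a level is not divided by gene length, so levels are compared within a gene only. Under 20 reads, 94.1% to 95.9% of values were whole reads within 0.02, which gave the reads quoted.

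Log2(value + 1) was fitted with limma 3.58.1 (eBayes with trend, R 4.3.3) in each of 15 comparisons, two-sided, with Benjamini-Hochberg adjustment over all genes above 0 in at least 4 cell libraries or 2 tissue units. Fold changes are on that scale and understate those of low genes. A gene was called at an adjusted p under 0.05 and a log2 change over 1. Libraries of 1 mouse were averaged for the fits, whereas group means, orders and correlations are over libraries unless said otherwise. The scripts were tested on simulated data. No pair of libraries held identical values. Intervals are 95% and floors of 3 reads cover counting error only.

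All 10 members are named. From 7 wider lists (NRF2 regulators and partners, glutathione supply and peroxidases, thioredoxin and peroxiredoxin genes, superoxide dismutases and catalase, conjugation and efflux, NADPH supply, haem and iron handling) a comparison names at most the 3 called genes with the largest change whose groups do not overlap (genes named beyond these are marked as named after their values were seen), and for each member the 2 genes most like it, among those with a group mean of at least 50 units. Vhl, Cdkn2a and Myc are given beside the labels. One marker gene is not reported here. The members and lists were chosen with earlier results of these data known. Replicate numbers were not treated as pairs. Alternatives were other pseudocounts (0.1 and 10), filters, TMM and quantile scaling, limma voom, other sample sets, a replicate block and leaving out each library. Python 3.11.15 with pandas 2.3.3, numpy 2.4.6 and matplotlib 3.10.9 was used for tables and plots, and blastn 2.17.0 for genome copies.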

Additional observations from a re-analysis of the deposited data

Results flagged for a closer look

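In the groups of 4 or 5 libraries, 2 of 70 sets of member values held a library far from the others, and about 1 in 20 would by chance. Gclc was at 1584 units in one VIM-3039 library with Dox against 1621 to 1627 in the other libraries of that group, and Gsr was at 2188 units in one VM-3055 library with Dox against 2128 to 2133 in the others. The Dox effect on Nqo1 differed between lines, by 1.82 for VM-3055 minus MYC-2983 and by 2.69 for VIM-3039 minus MYC-2983 on the log2 scale. The Dox effect on Hmox1 differed by 1.005 for VIM-3039 minus MYC-2983.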

How the results depend on the processing

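Over the alternatives other than leaving out a library, 124 of 136 counts of called members stayed within 1.5 times, and 1319 of 1360 single gene results kept direction and call. The count of called members became 1 for Dox in VM-3055 cells with a pseudocount of 10, TMM or quantile scaling, and 2 for Dox in VIM-3039 cells with TMM. It became 1 for the VIM-3039 minus MYC-2983 Dox effect with TMM or quantile scaling, and 1 for VIM-3039 minus MYC-2983 cells with a pseudocount of 10, TMM or quantile scaling. It became 2 for VIM-3039 minus VM-3055 in lines without Dox, and 1 for VM minus MYC and for VIM minus MYC tumours with all 4 tissue groups in one fit. That fit called 395 and 713 of all 17116 genes tested for these 2 pairs of tumours. The causes were not tested.

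Signs turned as follows. With TMM these were Nfe2l2 for Dox in MYC-2983 (0.07), the VIM-3039 minus VM-3055 Dox effect of Nfe2l2 (-0.03), Keap1 (-0.12, and -0.03 with quantile scaling) and Gsr (-0.04), Gsr in VM-3055 minus MYC-2983 cells (0.04), Keap1 (0.03), Txnrd1 (0.15, and 0.12 with quantile scaling) and Gsr (0.16, and 0.09) in VIM-3039 minus MYC-2983 cells, and Txnrd1 in VIM minus MYC tumours (0.04). In lines without Dox they were Nqo1 (-0.71) and Gpx4 (-0.02) for VIM-3039 minus VM-3055, Nfe2l2 (-0.20) for VM-3055 minus MYC-2983, and Nfe2l2 (-0.34), Keap1 (0.04) and Hmox1 (-0.31, from 0.70 with Dox) for VIM-3039 minus MYC-2983. In MYC tumours against kidney quantile scaling gave Nfe2l2 at 0.07 and Gclc at 0.50, and Gclc was 0.37 with libraries entered separately and 0.04 with B6 kidneys. Nfe2l2 in VIM tumours was -0.01 with KT kidneys, Nqo1 in VM minus MYC tumours 0.36 with quantile scaling, and Gsr in VIM minus MYC tumours -0.03 with libraries entered separately.

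Leaving out each library, the count ranged from 1 to 2 for the VIM-3039 minus MYC-2983 Dox effect and for VIM-3039 minus MYC-2983 cells. Among genes whose sign turned, the ranges for the Dox effect were -0.02 to 0.08 (Keap1, VIM-3039 minus VM-3055) and -0.04 to -0.00 (Gclm) and -0.05 to 0.09 (Gpx4) for VIM-3039 minus MYC-2983. In cells with Dox they were -0.06 to 0.34 (Nqo1, VIM-3039 minus VM-3055) and -0.02 to 0.02 (Txnrd1) and -0.01 to 0.02 (Gsr) for VIM-3039 minus MYC-2983. Against kidney they were -0.19 to 1.20 (Gclc, MYC), -0.05 to 0.13 (Nfe2l2, VIM) and -0.16 to 0.03 (Srxn1, VIM). Between tumours they were -1.13 to 0.87 (Nqo1) and -0.43 to 0.02 (Gsr) for VM minus MYC, -0.54 to 1.01 (Gclc) and -0.25 to 0.46 (Gsr) for VIM minus MYC, and -0.14 to 0.05 (Keap1), -0.04 to 0.21 (Txnrd1) and -0.07 to 0.63 (Gsr) for VIM minus VM. The replicate block changed no count of called members (2 and 1 for Dox in VM-3055 and VIM-3039, 0 for their difference, 1 for the lines with Dox). Same-numbered VM and VIM libraries correlated at -0.09 to 0.09, so the numbers were not read as pairs. Nqo1 in the Vhl-deleted lines stands on few reads, and 2 or 3 mice per tumour group limit the tumour comparisons.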
